A study of Mus musculus with 9 samples.

Results

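Livers of mice that had eaten a high fat diet and received metformin were compared with livers of chow-fed mice, to ask which circular RNAs (circRNAs) still stood apart from chow despite the drug. The comparison was between 6 of the 9 arrays of the study, the 3 titled Metformin and the 3 titled Control. It covered all 30534 circRNA probes of the array, each read beside a partner probe of the same name with the ending _neg. All mice were male C57BL/6J, an inbred laboratory strain, 3 weeks old at the start and 20 weeks old when the liver was taken, and no genetic change is listed for any of them. Control mice were fed chow for 17 weeks, and their labels list no gavage. Metformin mice were fed for the same 17 weeks on a diet that took 45% of its energy from fat, and were given 3 mg metformin per kg body weight per day into the stomach for the last 5 weeks. Another group ate the same fat diet and received saline into the stomach over those 5 weeks. Its values are shown beside the comparison, and its arrays entered the shared estimate of the spread and the choice of probes tested. Control and metformin mice thus differed in diet, gavage and drug together, and these cannot be told apart here. The RNA on an array was a pool from 4 livers, so the spread between the 3 arrays of a group is that between pools and does not show the spread between single mice.

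A circRNA forms when the splicing machinery joins the end of an exon back to the start of the same or an earlier exon, which closes the RNA into a ring without free ends. Rings resist exonucleases and often outlast the linear messenger of their host gene, and their level follows the transcription of the host, the frequency of back-splicing and their slow decay. Every sample was digested before labelling with RNase R, an exonuclease that removes linear RNA and leaves rings. Metformin is a biguanide given to lower blood glucose. It acts largely on the liver, where it slows glucose production and, through mitochondrial energy sensing, activates the kinase AMPK. Long feeding of a high fat diet makes C57BL/6J mice obese and loads their livers with fat.

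Levels are given as log2 of the processed spot intensity minus the 75th percentile of all probes on that array. A level of 0 is therefore the intensity that 75% of the probes stay under, and a difference of 1 is a doubling. Levels compare 1 probe across arrays. Between different probes, such as a circRNA probe and its partner, brighter or dimmer describes spot intensity and not an amount of RNA. In bulk liver, fewer cells of a type and less RNA per cell cannot be told apart. The files name circRNAs by a number, a code or a position and do not pair them with host genes, so that no host gene is given and the labelled tissue could not be set against its marker genes. Positions are those in the probe names, in mouse build mm9 as named in the file headers.

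The arrays resembled each other closely within and across the groups. Over circRNAs, levels correlated at 0.988 to 0.993 between control arrays, at 0.983 to 0.991 between metformin arrays and at 0.981 to 0.992 between the groups, as a description over probes that share an array. Of the circRNA probes, 87.1% ± 1.79 (SD, n = 3) were well above background in controls and 84.5% ± 7.11 (SD, n = 3) with metformin (exact two-sided permutation test, p = 0.8; the smallest p possible is 0.1). Metformin replicate 3 had the lowest share, 76.3%, against 88.8% and 88.5% for the other metformin arrays. It was also the only array on a second slide, with a scan of its own. On the first slide the 3 controls lay in column 1 and metformin replicates 1 and 2 in column 2, so that slide column and group cannot be told apart there.

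No circRNA passed the test between metformin on the high fat diet and chow. At an adjusted p under 0.05 (limma with Benjamini-Hochberg adjustment over all circRNAs), 0 of 25763 circRNAs were called (0%), and the smallest adjusted p was 0.290. An unadjusted p under 0.05 was reached by 1307 circRNAs (5.07%); 423 were higher with metformin (1.64%) and 884 lower (3.43%). Without metformin replicate 3 these were 454 higher and 542 lower of 25645, and without control replicate 2 only 266 were higher. Groups that did not overlap at all were found for 1176 circRNAs on the higher side (4.76% of the 24707 with a value on all 6 arrays) and 1699 on the lower side (6.88%).

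Most circRNAs lay close to their chow level, and the arrays were precise enough to bound the difference for nearly all of them. The median difference, metformin minus control, was -0.03, the SD over circRNAs was 0.215, and 96.8% of circRNAs differed by less than 0.5 log2 units. The median 95% interval reached 0.36 to either side of the difference, 0.34 in the brightest 10% of circRNAs and 0.50 in the dimmest 10%. For 24664 circRNAs (95.7%) the whole interval lay within 1 log2 unit of no difference. Point estimates beyond 1 log2 unit were found for 17 circRNAs on the higher side and 59 on the lower side. For 2 circRNAs the whole interval lay beyond it, mmu_circ_0008401 on the lower side and a circRNA on chromosome 13 on the higher side. Both had values near background in at least 1 group, as described further on.

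**Figure D1:**
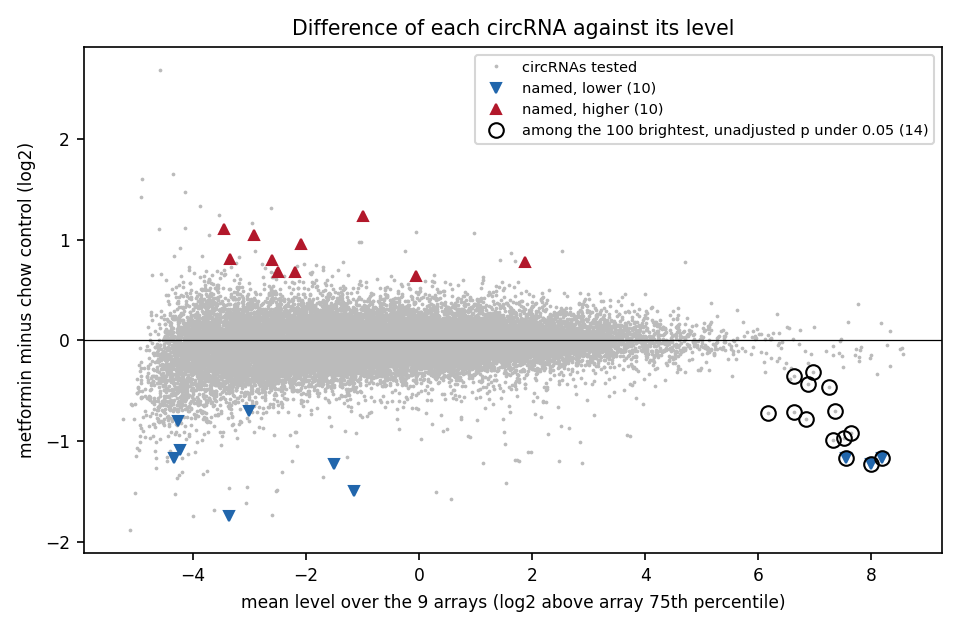
Difference of each tested circRNA (metformin minus chow control, log2, vertical axis) against its mean level over the 9 arrays (log2 above the array's 75th percentile, horizontal axis). Grey points are all circRNAs tested, triangles the 10 named on either side, and open circles the 14 of the 100 brightest with an unadjusted p under 0.05, all of which lie below 0.

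On the side lower with metformin than on chow, the named circRNAs came from both ends of the brightness range. The 10 with the smallest p among those measured on every array and without overlap between groups were lower by 0.70 to 1.75 log2 units, which is 1.63-fold to 3.36-fold, with adjusted p (limma) from 0.290 to 0.468. Of these, 5 were well above background on all 9 arrays and 5 had a mean level under -2, near the dim end. All 10 were brighter than their partner probe, as were 21068 of the 25763 circRNAs tested. The partner was measurable for 6 of them, and it was lower too in all 6.

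Of these 10, mmu_circ_0015494 had the smallest p, and it is among the 100 brightest circRNA probes. Its level was 8.73, 8.74 and 8.69 in the 3 control arrays and 7.31, 7.41 and 7.77 in the 3 metformin arrays. The controls lay within 0.05 of each other, and every metformin array was below all of them. The difference was -1.22 ± 0.18 (SE; limma, 3 arrays per group, adjusted p = 0.290; 95% interval -1.62 to -0.83). On the high fat diet with saline the level was 7.36, 7.92 and 7.94, which overlaps with metformin and not with chow; metformin minus high fat diet was -0.24 with an interval of -0.63 to 0.15. Its partner probe stood at 8.28, 8.01 and 7.65 on chow and at 6.80, 7.06 and 7.29 with metformin, likewise without overlap.

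The next numbers belong to a pair of bright circRNAs. mmu_circ_0015495 stood at 8.80, 8.80 and 8.91 on chow, at 7.76, 8.00 and 8.38 on the high fat diet with saline and at 7.29, 7.60 and 8.11 with metformin, a difference from chow of -1.17 ± 0.21 (SE; limma, adjusted p = 0.351). mmu_circ_0015496 stood at 8.59, 8.12 and 7.98 on chow, at 7.38, 7.17 and 7.53 with saline and at 6.95, 7.05 and 7.19 with metformin, also a difference of -1.17 ± 0.17 (SE; limma, adjusted p = 0.290). In both, all 3 fat-fed saline arrays and all 3 metformin arrays lay below the 3 chow arrays. Metformin minus high fat diet was -0.38 (95% interval -0.84 to 0.08) and -0.30 (-0.67 to 0.08), so neither interval left out 0.

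At medium brightness, mmu_circ_0001100 stood lower with metformin as well. Chow arrays held -0.19, -0.54 and 0.27, metformin arrays -1.33, -2.04 and -1.59, and the groups were clear of each other. The difference was -1.50 ± 0.24 (SE; limma, adjusted p = 0.290), a 2.83-fold lower intensity. The saline-treated fat-fed arrays held -1.34, -1.92 and -1.73, almost the same values as with metformin; metformin minus high fat diet was 0.01, with an interval of -0.51 to 0.53. Its partner probe was lower by -1.40 as well.

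mmu_circ_0001608 stood at -1.40, -0.38 and -0.78 on chow, at -1.39, -1.89 and -1.55 with saline and at -1.91, -2.13 and -2.20 with metformin. Metformin arrays were all below chow, while saline arrays reached up to the lowest chow value. The difference from chow was -1.23 ± 0.23 (SE; limma, adjusted p = 0.466). The circRNA with the next number, mmu_circ_0001609, lies outside the naming rule and was singled out after its values were seen. It stood at 1.65, 2.37 and 2.03 on chow, 1.49, 1.46 and 1.26 with saline and 1.03, 1.35 and 0.92 with metformin, a difference of -0.91 ± 0.19 (SE; limma, adjusted p = 0.524). Here the partner ran the other way, by 0.72 ± 0.51 (SE), and the ratio of the probes differed by -1.63 ± 0.60 log2 units (SE; adjusted p = 0.694).

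The dim circRNAs of the list had the largest single difference. mmu_circ_0008401 stood at -2.36, -2.42 and -2.08 on chow, at -3.42, -4.03 and -3.78 with saline and at -3.69, -3.56 and -4.84 with metformin, a difference of -1.75 ± 0.29 (SE; limma, adjusted p = 0.290). It was well above background on all chow arrays and on 2 of 3 arrays in each fat-fed group, so its low values are near the limit of what the array reads. Without metformin replicate 3, its lowest array, the difference was -1.35. Fan_16_148_1250 stood at -3.28, -3.68 and -3.51 on chow and at -5.04, -4.25 and -4.69 with metformin (-1.17 ± 0.20, SE; adjusted p = 0.290), and on only 1 of 3 metformin arrays was it well above background. mmu_circ_0010430 differed by -1.09, mmu_circ_0008929 by -0.70, and a circRNA on chromosome 15 (47215238 to 47217966) by -0.80. Each was well above background on all 3 chow arrays but on only 2 of 3 metformin arrays. All of these dim circRNAs except mmu_circ_0008929 were tested only because they stood above background on all chow arrays. That choice favours low values with metformin, so these differences support no direction.

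**Figure D2:**
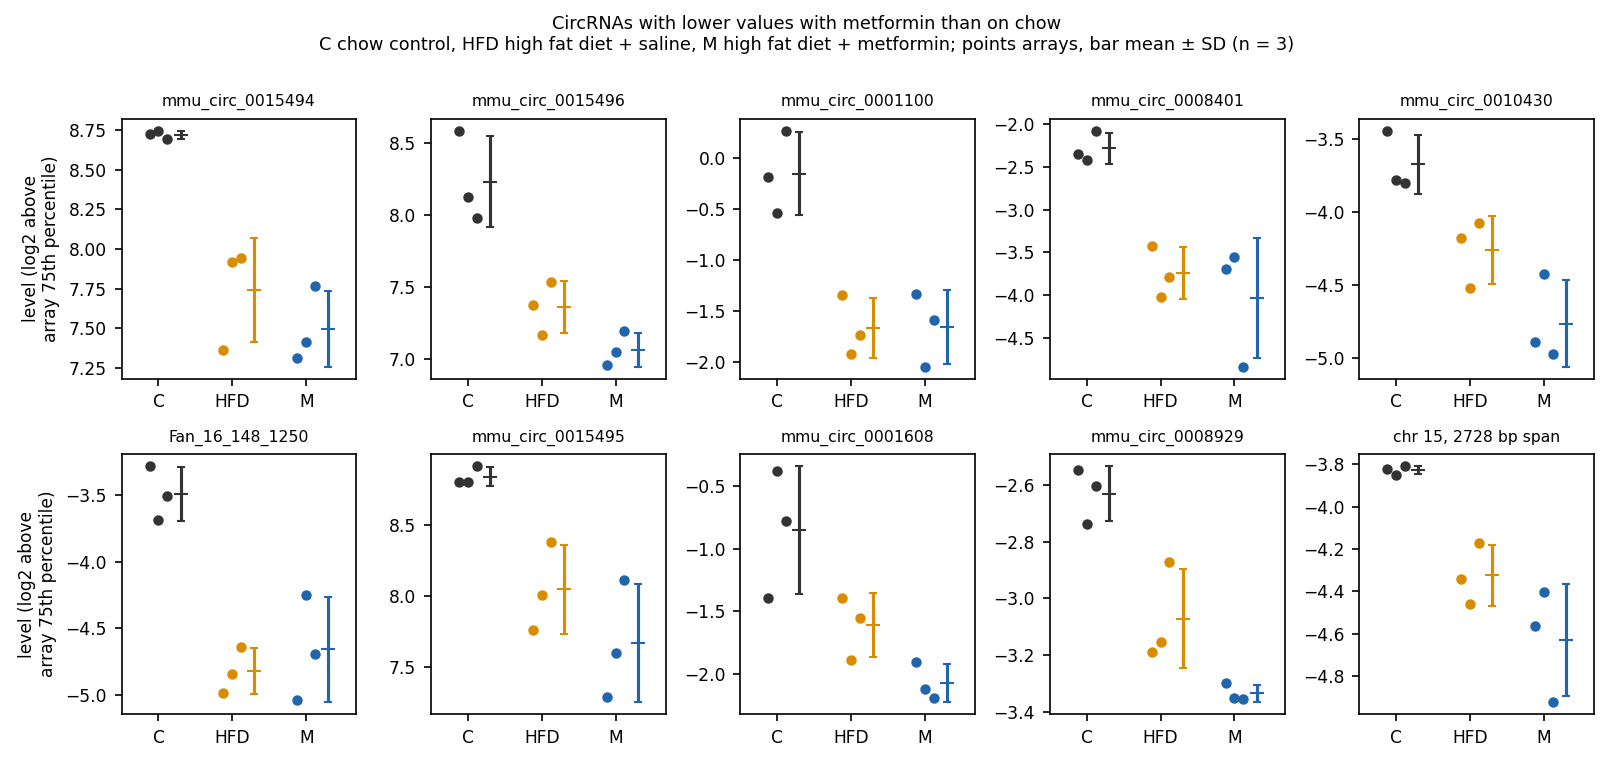
Levels (log2 above the array's 75th percentile) of the 10 circRNAs lower with metformin, with 1 point per array and the mean ± SD (n = 3) beside each group; the vertical axes differ between panels and do not start at 0. In every panel the 3 metformin points lie below the 3 chow points, and in mmu_circ_0001100 the saline-treated high fat diet mean, -1.67, stands beside -1.65 with metformin and -0.15 on chow.

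The 10 named circRNAs on the higher side differed by less and were mostly dim. Their differences ran from 0.63 to 1.24 log2 units, or 1.55-fold to 2.36-fold, with adjusted p (limma) from 0.290 to 0.560. A mean level under -2 was found for 7 of the 10. The partner was measurable for 9, and for 7 of these it was higher too. The partner was the brighter probe for 2 of the 10, mmu_circ_0006160 and the circRNA on chromosome 3.

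The smallest p on this side belonged to a circRNA on chromosome 2 (28396231 to 28406083). It stood at -3.81, -4.04 and -3.71 on chow, -3.10, -3.24 and -3.09 with saline, and -3.04, -3.12 and -2.99 with metformin. Both fat-fed groups lay above chow without overlap, and they overlapped with each other. The difference from chow was 0.81 ± 0.13 (SE; limma, adjusted p = 0.290), and metformin minus high fat diet was 0.10 (95% interval -0.19 to 0.39). Its partner, at about the same brightness, differed by -0.21 ± 0.23 (SE).

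mmu_circ_0011790 had the largest difference of these 10, and its saline-treated arrays lay near the chow level. Chow arrays held -1.74, -1.38 and -1.18, saline arrays -1.39, -1.84 and -0.76, and metformin arrays -0.22, -0.59 and 0.23. Metformin arrays lay above all 6 others, and chow and saline arrays overlapped. The difference from chow was 1.24 ± 0.27 (SE; limma, adjusted p = 0.538) and that from high fat diet 1.14 ± 0.27 (SE; adjusted p = 0.969). Its partner was higher by 1.38, and the ratio of circRNA to partner differed by -0.14.

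A pair of overlapping circRNAs on chromosome 14 that share the end 32436160 was higher. The one from 32427390 stood at -0.43, -0.45 and -0.42 on chow, -0.08, 0.12 and 0.10 with saline and 0.33, 0.09 and 0.18 with metformin (0.63 ± 0.13, SE; limma, adjusted p = 0.524). The longer one, from 32421153, was the brightest of the list, with 1.12, 1.50 and 1.72 on chow, 1.93, 1.92 and 2.02 with saline and 2.32, 1.95 and 2.41 with metformin (0.78 ± 0.18, SE; adjusted p = 0.538). Since they share sequence at 1 end, they are not independent readings. Another circRNA on that chromosome (36257400 to 36265585) differed by 0.68 ± 0.15 (SE; adjusted p = 0.560).

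A circRNA on chromosome 7 (55979750 to 55982192) stood at -2.69, -2.49 and -2.75 on chow, -2.12, -1.97 and -1.71 with saline and -1.41, -1.96 and -1.69 with metformin, a difference from chow of 0.95 ± 0.17 (SE; limma, adjusted p = 0.351), and its partner was higher by 0.90. mmu_circ_0004012 stood at -3.13, -2.98 and -2.91 on chow, -2.68, -2.63 and -2.36 with saline and -2.16, -2.36 and -2.11 with metformin (0.80 ± 0.14, SE; adjusted p = 0.351), whereas its partner differed by -0.05. In both, chow was clear of the other groups. The remaining members, mmu_circ_0010733, mmu_circ_0006160 and the circRNA on chromosome 3 (88811064 to 88827132), differed by 1.11, 0.68 and 1.04.

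**Figure D3:**
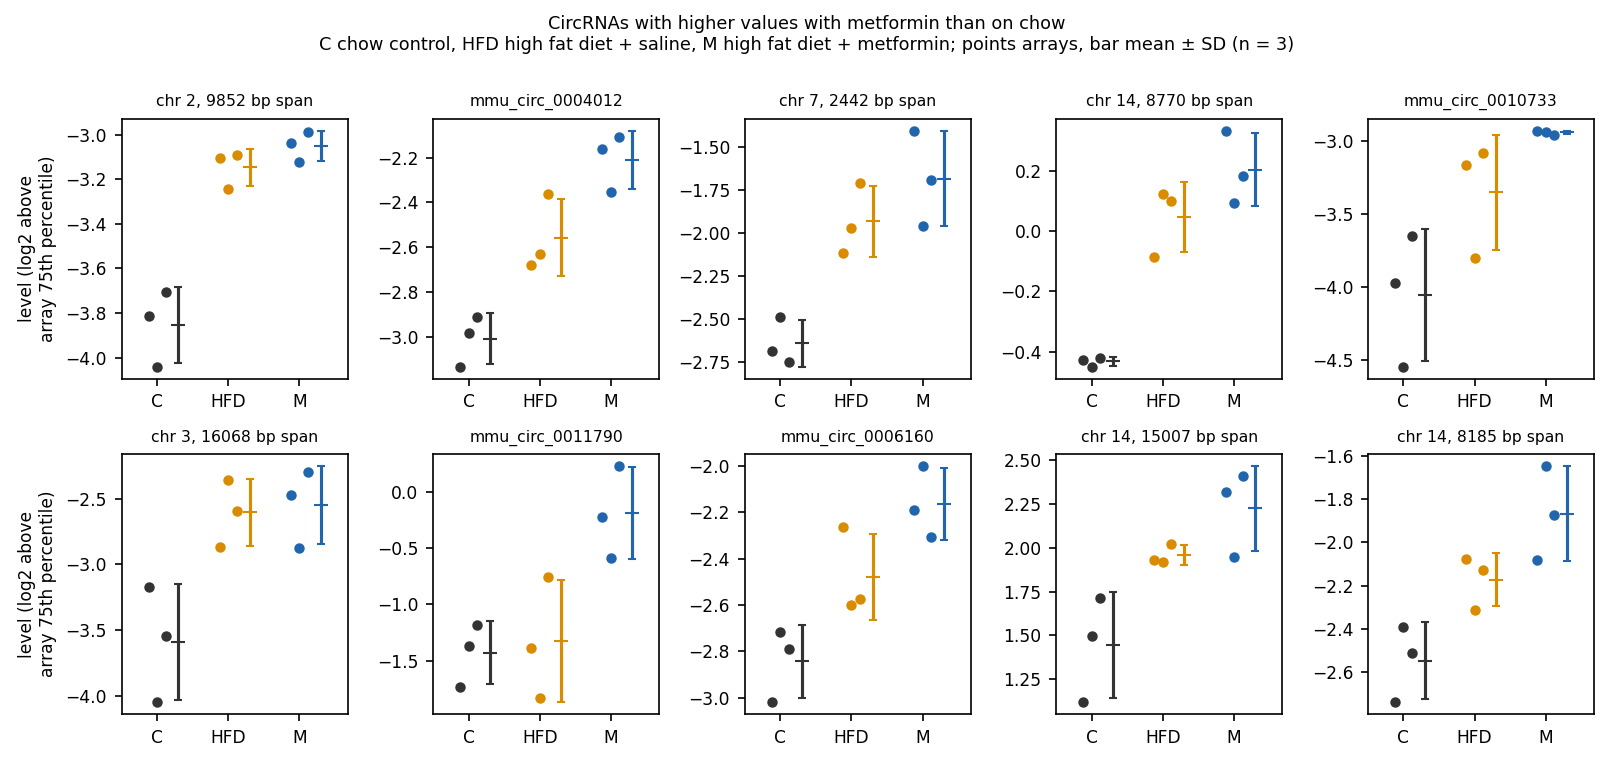
Levels (log2 above the array's 75th percentile) of the 10 circRNAs higher with metformin, with 1 point per array and the mean ± SD (n = 3) beside each group; the vertical axes differ between panels and do not start at 0. All metformin points lie above all chow points, and in mmu_circ_0011790 the saline-treated high fat diet points overlap with chow (means -1.33 and -1.43 against -0.19).

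Among bright circRNAs more were lower than higher, a count whose direction turned with the authors' deposited values. Of the 100 circRNA probes brightest over all arrays, 99 could be tested, and 14 of them were lower and 0 higher at an unadjusted p under 0.05, beside 3.43% and 1.64% of all circRNAs tested. The median difference over the 99 was -0.09, against -0.03 over all, and 68 of the 99 were below 0. Groups did not overlap for 21 on the lower side and 1 on the higher side. Over circRNAs of any level with a value on every control and metformin array, the shares without overlap were 6.88% and 4.76%. All of these are counts of probes, which need not be independent readings. None of the 99 passed the adjusted threshold. Without metformin replicate 3, 22 of 98 were lower and 0 higher. The 0 on the higher side depended on the scaling: 11 were higher after normexp with quantile normalization and 5 after quantile normalization of the processed signal, while 11 and 10 were lower. By the authors' deposited values, fitted in the same way, 10 were higher and 5 lower.

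The 14 lower ones differed by -0.31 to -1.22, and in all 14 every metformin array lay below every chow array. All 14 were brighter than their partner, as were 21068 of the 25763 circRNAs tested. The partner's difference was below 0 in all 14, although that of mmu_circ_0016041 was only -0.02 ± 0.98 (SE). The log2 ratio of circRNA to partner differed by a median of -0.13 (range -0.64 to 0.16). Runs of neighbouring numbers held 8, 3 and 2 of them, a pattern seen in the values and given as a description. Whether circRNAs in a run are independent readings is not known, so the 14 count probes and not separate changes. The sources used here do not say what the order of the numbers stands for.

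The 8 tested circRNAs numbered from mmu_circ_0015494 to mmu_circ_0015506 were all among them, with differences of -0.31 to -1.22. Beyond the 3 already described, mmu_circ_0015506 differed by -0.70, mmu_circ_0015498 by -0.46, mmu_circ_0015497 by -0.44, mmu_circ_0015503 by -0.35 and mmu_circ_0015502 by -0.31. The numbers on either side belong to dimmer circRNAs that stayed near their chow level: mmu_circ_0015493, at a mean level of -2.61, differed by 0.18, and mmu_circ_0015507, at -0.42, by -0.11.

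A second run held mmu_circ_0010285, mmu_circ_0010286 and mmu_circ_0010287. mmu_circ_0010285 stood at 7.39, 7.34 and 7.37 on chow, 6.49, 6.35 and 6.92 with saline and 6.48, 6.53 and 6.74 with metformin, a difference from chow of -0.78 ± 0.16 (SE; limma, adjusted p = 0.524). mmu_circ_0010287 stood at 7.29, 6.88 and 7.16, then 6.33, 6.26 and 6.53, then 6.18, 6.52 and 6.51, a difference of -0.71 ± 0.16 (SE; adjusted p = 0.538). Neither fat-fed group reached the chow range, and metformin minus high fat diet was -0.01 and 0.03, with intervals of -0.35 to 0.34 and -0.31 to 0.38. mmu_circ_0010286, the brightest of the run, differed from chow by -0.92 ± 0.21 (SE; adjusted p = 0.538). The neighbours mmu_circ_0010284 and mmu_circ_0010288 differed by 0.30 and -0.04.

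The last members were mmu_circ_0016041 (-0.72), mmu_circ_0016042 (-0.99) and mmu_circ_0015544 (-0.97). mmu_circ_0015544 stood at 8.54, 7.88 and 7.78 on chow, 7.03, 7.27 and 7.80 with saline and 6.92, 7.04 and 7.32 with metformin, so that saline arrays reached into the chow range and metformin arrays did not. mmu_circ_0016041 stood far above its partner, with a mean level of 6.17 against 0.12.

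Over a wider set that takes in the bright circRNAs already described, differences of more than 0.5 log2 units were counted more often on the lower side. Among the 9426 tested circRNAs with a mean level above 0, 83 were lower by more than 0.5 log2 units and 32 higher. Of all circRNAs tested, 96.8% differed by less than 0.5 log2 units. The rest were not split by direction, so the 83 and 32 have no like share beside them. Nor was the split repeated without a replicate or under other processing. Of those beyond 0.5 with values on every array, 48 on the lower side and 13 on the higher side showed no overlap between metformin and chow. This list was drawn after the values were seen. Over circRNAs of any level and size, groups did not overlap for 6.88% on the lower side and 4.76% on the higher side. The 48 and 13 were also picked by size, so these shares are not like for like. The partner's difference was below 0 for 43 of the 44 lower ones in which it was measurable, mmu_circ_0001609 being the exception, and above 0 for 8 of 10 on the other side.

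The largest of these on the lower side was mmu_circ_0009753, at 2.09, 1.26 and 0.85 on chow, 0.33, 0.78 and 0.29 with saline and 0.68, -0.38 and -0.83 with metformin, a difference of -1.57 ± 0.37 (SE; limma, adjusted p = 0.606). mmu-circRNA1524 had a similar mean difference, -1.50 ± 0.53 (SE; adjusted p = 0.906), but 1 chow array at 2.92 stood far above the other chow values of 0.48 and 0.34. mmu_circ_0005279 stood at 2.63, 2.17 and 1.86 on chow and 1.48, 0.78 and 0.13 with metformin (-1.42 ± 0.30, SE; adjusted p = 0.538). In all 3, metformin replicate 3 was the lowest array of the study.

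A circRNA on chromosome 13 (62270802 to 62275617) stood at 1.86, 1.36 and 1.61 on chow, 0.67, 0.58 and 0.05 with saline and 0.90, 0.61 and 0.44 with metformin, with a difference of -0.96 ± 0.20 (SE; limma, adjusted p = 0.524). A pair of circRNAs on chromosome 7 that share the start 97153578 had partners near the dim end (mean levels -5.82 and -6.75). The one ending at 97161991 stood at 1.59, 2.11 and 1.32 on chow, 0.84, -0.31 and 0.02 with saline and 1.08, 0.69 and 0.41 with metformin (-0.95 ± 0.29, SE; adjusted p = 0.855), and the one ending at 97177737 differed by -0.88 ± 0.30 (SE; adjusted p = 0.902). In both, metformin arrays lay below chow and mostly above the saline arrays.

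On the higher side, a circRNA on chromosome 15 (22747383 to 22754048) led, with -0.26, 0.85 and 0.25 on chow, 1.6, 0.77 and 1.55 with saline and 1.17, 1.24 and 1.62 with metformin, a difference of 1.06 ± 0.28 (SE; limma, adjusted p = 0.718). mmu_circ_0002709 stood at 1.16, 1.34 and 0.93 on chow, 2.22, 1.89 and 2.01 with saline and 1.63, 1.73 and 2.44 with metformin (0.79 ± 0.21, SE; adjusted p = 0.721), while its partner differed by -0.04. Neither fat-fed group overlapped with chow in mmu_circ_0002709, and in the chromosome 15 circRNA 1 saline array did.

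The partner probes as a whole gave no call either. Of 21979 partner probes, 0 passed the adjusted threshold (0%; limma, smallest adjusted p = 0.502), and an unadjusted p under 0.05 was reached by 1359 (6.18%), with 713 on the higher side (3.24%) and 646 on the lower side (2.94%). The sources used here do not say what the partners bind. Of the 939 circRNAs with an unadjusted p under 0.05 and a measurable partner, 804 had a partner that differed in the same direction. The same share over all pairs was not counted, here or for the named lists. Partner and circRNA probe are read on the same arrays and are not independent.

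To find circRNAs that parted from their partner, the log2 ratio of circRNA to partner was fitted in the same way. None of 21169 ratios was called (limma, 0 at an adjusted p under 0.05, 0%), 1417 reached an unadjusted p under 0.05 (6.69%), of which 495 were higher ratios (2.34%) and 922 lower ones (4.36%), and the smallest adjusted p was 0.111. That smallest p was for mmu_circ_0006515, whose ratio was 2.30, 2.30 and 2.09 on chow, 2.56, 2.38 and 2.70 with saline and 3.21, 3.40 and 3.42 with metformin. Metformin arrays lay above all others, and the replicates of each group were close together. The ratio differed from chow by 1.11 ± 0.12 (SE), made up of 0.60 ± 0.27 for the circRNA and -0.52 ± 0.25 for the partner. Without metformin replicate 3 the circRNA itself differed by 0.25, while the ratio differed by 1.07.

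mmu_circ_0015136 had a ratio of 0.78, 0.86 and 0.38 on chow, 1.40, 1.76 and 1.44 with saline and 1.66, 1.97 and 1.71 with metformin, a difference of 1.11 ± 0.16 (SE; limma, adjusted p = 0.268). In mmu_circ_0015722 the ratio differed by 0.94 (adjusted p = 0.310) through the partner alone, since the circRNA was at 0.54, 0.64 and 0.83 on chow and 0.66, 0.62 and 0.83 with metformin while the partner differed by -0.91. The 3 named on the lower side had the same form. The circRNA on chromosome 7 (63133061 to 63143309) stood at 1.15, 1.20 and 1.07 on chow and at 1.03, 1.08 and 1.17 with metformin, and its much dimmer partner differed by 0.77, which gave a ratio difference of -0.82 (adjusted p = 0.268). For mmu_circ_0006431 and mmu_circ_0005463 the ratio differed by -0.94 and -1.0 (adjusted p = 0.263 for both), with the circRNA at -0.12 and 0.00 from its chow level.

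**Figure D4:**
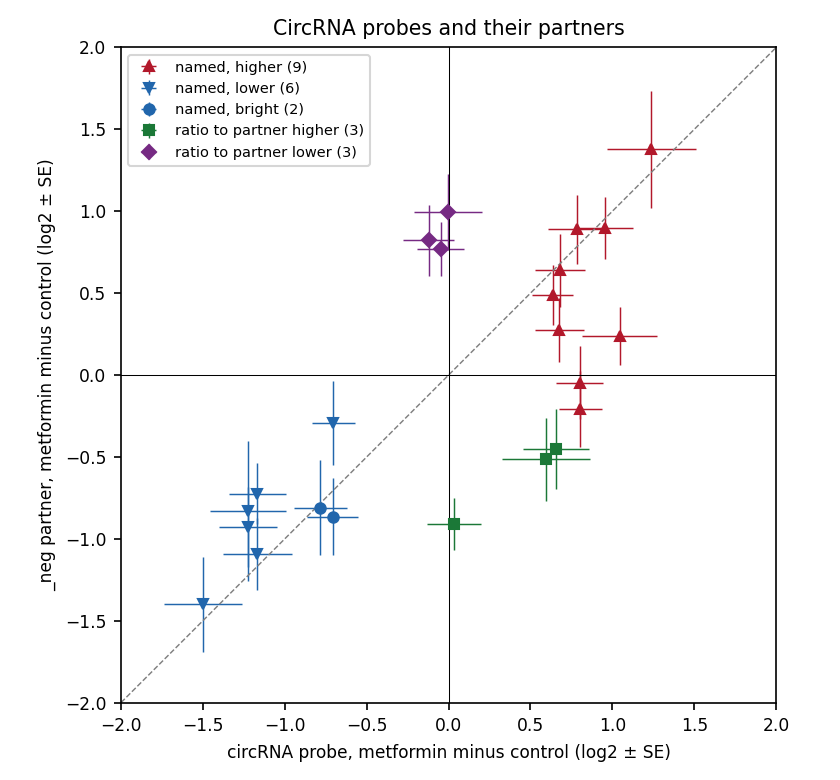
Difference (metformin minus chow, log2 ± SE) of the circRNA probe on the horizontal axis and of its _neg partner on the vertical axis, for the named circRNAs with a measurable partner; the dashed line marks equal differences. The 6 lower and 2 bright circRNAs lie in the lower left, where both probes were lower, while the 3 with a lower ratio lie at a circRNA difference near 0 and a partner difference between 0.77 and 0.99.

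circRNAs whose spans overlap come from 1 stretch of the genome, and their mean was tested as a locus. Over the 981 loci with 3 or more circRNAs tested and read on every array (4533 circRNAs), 0 passed the adjusted threshold (0%; limma, smallest adjusted p = 0.900). The unadjusted p was under 0.05 for 49 loci (4.99%), of which 11 lay higher (1.12%) and 38 lower (3.87%). The groups did not overlap for 31 loci on the higher side (3.16%) and 83 on the lower side (8.46%). In 201 loci every circRNA was lower with metformin and in 103 every circRNA was higher, around a median locus difference of -0.04.

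The largest named difference was at a locus on chromosome 19 (40228009 to 40242113), where 5 circRNAs share the end 40242113 and start at different points. The locus mean was 3.03, 3.66 and 3.41 on chow, 2.56, 3.21 and 2.01 with saline and 2.66, 2.53 and 1.56 with metformin, a difference from chow of -1.11 ± 0.31 (SE; limma, adjusted p = 0.900). All metformin arrays lay below all chow arrays in each of the 5 circRNAs, and metformin replicate 3 lay lowest. Without that replicate the locus differed by -0.77 (limma, adjusted p = 1.00). The brightest circRNA, from 40231213, stood at 3.97, 4.46 and 4.36 on chow, 3.52, 4.21 and 3.08 with saline and 3.60, 3.51 and 2.84 with metformin (-0.95). The one from 40235045 stood at 3.21, 3.96 and 3.51, then 2.63, 3.43 and 2.13, then 2.81, 2.67 and 1.56 (-1.22), and the other three differed by -1.19, -1.01 and -1.20. Partners of the 5 were lower by a mean of -1.04, so that the ratio differed by -0.08.

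**Figure D5:**
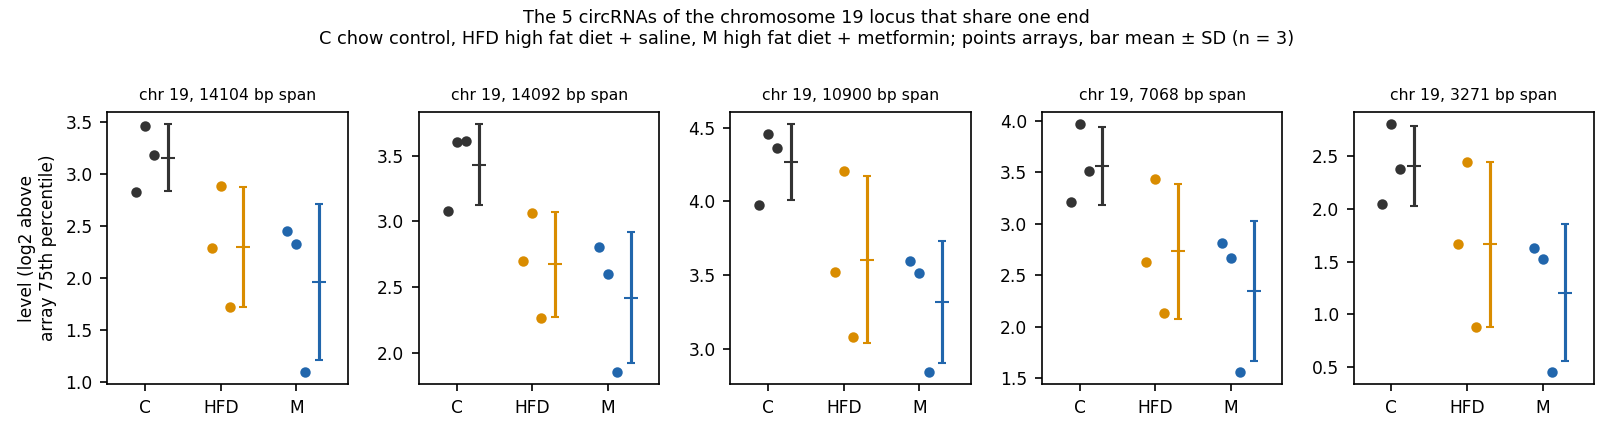
Levels (log2 above the array's 75th percentile) of the 5 circRNAs of the chromosome 19 locus that end at the same position, with 1 panel per circRNA headed by its span, 1 point per array and the mean ± SD (n = 3) beside each group; the vertical axes do not start at 0. In each panel all metformin points lie below all chow points, and the saline-treated high fat diet points overlap with the metformin points and, in 4 of the 5 panels, with the chow points.

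A second locus on chromosome 19 (43579012 to 43590352) held 3 circRNAs. Its mean was 2.05, 2.05 and 2.04 on chow, 1.19, 1.06 and 0.85 with saline and 1.80, 1.40 and 1.13 with metformin. Chow arrays were almost equal and stood clear of both fat-fed groups, and metformin arrays lay between chow and most saline arrays. The difference from chow was -0.60 ± 0.15 (SE; limma, adjusted p = 0.900), and metformin minus high fat diet was 0.41 ± 0.15 (SE; adjusted p = 0.976). Without metformin replicate 3 the difference from chow was -0.44. Without metformin replicate 1, the array nearest to chow, the difference from chow was -0.78 with an adjusted p of 0.0480; over all alternatives run the adjusted p ranged from 0.0480 to 1.00. By circRNA, the brightest (43579012 to 43582483) stood at 3.86, 3.86 and 3.85 on chow and 3.64, 3.39 and 3.44 with metformin (-0.36), that from 43581812 to 43590352 at 1.18, 1.18 and 1.1 and 0.91, 0.54 and 0.39 (-0.54), and the shortest (43579012 to 43579416) at 1.1, 1.13 and 1.16 and 0.87, 0.27 and -0.43 (-0.90).

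The third named locus on the lower side lies on chromosome 9 (58803766 to 58838315) and held 7 circRNAs, all of them lower. Its mean was 0.37, 0.40 and 0.16 on chow, 0.08, -0.14 and -0.21 with saline and 0.09, -0.21 and -0.35 with metformin (-0.46 ± 0.13, SE; limma, adjusted p = 0.900). The circRNA from 58805705 to 58833683 had the largest difference, -0.72, and that from 58829883 to 58838315 the smallest, -0.22. The partners were lower by a mean of -0.45. Without metformin replicate 3 the locus differed by -0.37.

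Loci on the higher side differed by less. A locus of 3 circRNAs on chromosome 18 had a mean of -1.41, -1.36 and -1.22 on chow, -1.04, -0.79 and -1.19 with saline and -0.99, -0.94 and -0.97 with metformin (0.36 ± 0.11, SE; limma, adjusted p = 0.900). Groups did not overlap in any of its 3 circRNAs. A locus on chromosome 1 (178961781 to 178997464) differed by 0.37 without overlap of its means. Another on that chromosome (11171936 to 11198736) had chow at -3.32, -3.17 and -2.74 and metformin at -2.60, -2.46 and -2.80, a difference of 0.46 with overlap.

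Counts among dim probes moved with the processing and are given as a description. A dim probe could be tested because it was above background in the group where it is high, so its count supports no direction. In the dimmest 10% of the tested circRNAs, 251 of 2576 were lower at an unadjusted p under 0.05 (9.74%) and 50 higher (1.94%), whereas in the brightest 10% 54 were lower (2.10%) and 21 higher. The median difference was -0.13 in the dimmest 10% and 0.00 in the brightest 10%. Metformin replicate 3 had the fewest probes above background, and without it 148 of the dimmest 10% were lower (5.75%) and 69 higher; without control replicate 1 the counts were 164 and 46. Over probes above background on all 9 arrays, the dimmest 10% held 4 lower and 15 higher. With normexp and the 75th percentile 37 were lower and 37 higher, with normexp and quantile normalization 79 and 32, and with trend and robust fitting 139 and 25. By kind of name, the lower share was 3.39% for mmu_circ numbers, 3.62% for Fan codes, 4.04% for mmu-circRNA names and 3.42% for positions, near the 3.43% of all. By span it was 3.04% under 1 kb and 3.74% from 10 to 50 kb, and by partner it was 3.37% where the circRNA was the brighter probe and 3.71% where the partner was.

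Of the 25864 circRNAs that passed the background filter, few went from detected to undetected between the groups. Each of these was tested through the group in which it was high and picked for being undetected in the other. Their direction was thus set by the choice, and the bounds are a description. Only mmu_circ_0009965 was well above background on all 3 metformin arrays and on none of the 3 chow arrays, at -4.22, -4.49 and -3.53 with metformin. On each chow array it was set against the lowest signal that counts as above background, or its own reading if higher. By this bound it was at least 2.17-fold higher (limma, adjusted p = 0.795), and at least 1.79-fold to 2.53-fold when 1 array was left out. In the other direction there were 3. One lies on chromosome 11 (4427839 to 4446271), where the bound was at least 1.46-fold lower with metformin (limma, adjusted p = 0.855), with no overlap between the groups, and at least 1.11-fold to 2.08-fold lower when 1 array was left out. For mmu-circRNA789 the groups overlapped: it stood at -2.31, -4.49 and -5.12 on chow and read -6.86, -5.97 and -4.74 with metformin, where no array was well above background. Its bound was at least 2.75-fold lower (adjusted p = 0.902) and rested largely on the chow array at -2.31: it was at least 1.54-fold without control replicate 1, 1.68-fold without metformin replicate 1 and 5.01-fold without metformin replicate 3. The circRNA on chromosome 10 (27044387 to 27047991) also overlapped between groups (adjusted p = 0.885), and its bound of at least 1.16-fold lower was lost without metformin replicate 1 or 2 and was 1.81-fold without metformin replicate 3.

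The largest difference of all on the higher side was also near background. A circRNA on chromosome 13 (58939157 to 58962916), named after its values were seen, was not well above background on any chow array and was so on all 3 saline arrays and on 2 of 3 metformin arrays. Its level was -2.10, -3.38 and -4.05 with saline and -4.32, -4.93 and -2.56 with metformin, against readings of -6.75, -7.06 and -6.04 on chow (limma, adjusted p = 0.538).

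The high fat diet values stand beside these results because metformin mice ate that diet too. Both differences from chow use the same 3 chow arrays, so that a chow array that runs high or low moves both alike, and no agreement between them is counted. Of the circRNAs named by their difference, brightness or ratio, mmu_circ_0001100, mmu_circ_0010285, mmu_circ_0010287, mmu_circ_0005463 and the circRNAs on chromosome 2, on chromosome 3 and on chromosome 7 (from 63133061) had metformin within 0.10 of the saline mean. The unadjusted 95% interval of metformin minus saline left out 0 for 5 of them. It was -0.50 for mmu_circ_0010430 (-0.91 to -0.10). That probe was well above background on all 3 chow arrays but on only 2 of 3 arrays in each fat-fed group. Its difference between those groups was thus read near background. On the higher side metformin minus saline was 1.14 for mmu_circ_0011790 (0.54 to 1.73) and 0.62 for mmu_circ_0015136 (0.18 to 1.06). For mmu_circ_0015722 it was 0.37 (0.01 to 0.73) and for mmu_circ_0004012 0.35 (0.04 to 0.66). None of the metformin minus high fat diet differences of the named circRNAs passed the adjusted threshold (limma, smallest adjusted p = 0.969).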

How the data were processed

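CircRNAs of liver were read on 1-colour arrays in Agilent format, 3 arrays per group. Per the labels' protocols, RNA from 15 mg of liver was extracted, 5 µg was digested with RNase R for 30 minutes, and the samples were labelled with Cy3. Per the file headers, spots were quantified with Agilent Feature Extraction 11.5.1.1 (the submitters' processing notes name 10.7). Per the file headers, the scanner software subtracted background from the deposited processed intensity and detrended it, without scaling between arrays; the deposited medians of spot and local background intensity are raw. A table of log2 values, also deposited by the authors, served as an alternative; the sources used here do not say how its floor was set.

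Processed intensities were brought to log2, and each array's 75th percentile, taken without control probes, was subtracted. Outlier-flagged spots were left out, as were 1439 control spots, and spots of a probe were averaged. Where that left a circRNA without a value on an array, the fit used the remaining arrays and nothing was imputed. Saturation was seen on no circRNA probe. Tested were the 25864 circRNAs (84.7%) whose probe stood well above background on every array of some group; 25763 had values enough for the difference. limma 3.58.1 in R 4.3.3 (lmFit, eBayes) was fitted to all 9 arrays, with 6 residual degrees of freedom and a prior worth 5.72 more. A circRNA was called at a Benjamini-Hochberg adjusted p under 0.05. The number of arrays limits the precision. The labels call the pools biological replicates. Code tested on simulated data, drawn with independent noise for each probe, recovered the mean direction of the changes put in. Array, slide and background effects were not simulated.

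Named were the 10 circRNAs with the smallest p higher and the 10 lower, among those with values on all 9 arrays, above background on all 3 arrays of the higher group and without overlap between control and metformin. To these were added the 5 with the smallest p among the 100 brightest, the 3 higher and 3 lower by the ratio to a dimmer partner, and the 3 higher and 3 lower loci. Loci join the circles whose spans overlap, and took in only circles with values on all 9 arrays. The circRNAs, lists and tests were chosen with earlier results of these data known. The lists by brightness, by level above 0 and by neighbouring numbers, and the locus rule on complete values, were chosen after seeing the data. For a probe above background on no array of 1 group, the fold is a lower bound. Per array of that group, the bound uses the lowest signal among probes well above background, or the probe's own value if that is higher, and then the mean. Normexp was run on the median intensities of spot and background with an offset of 50, in place of the mean intensities planned. Replicate numbers were checked for pairing: deviations of same-numbered control and metformin arrays correlated at -0.09, 0.02 and -0.14, and the numbers were not taken to pair arrays. Tissue markers were not tested, since probes are not paired with genes.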

Additional observations from a re-analysis of the deposited data

How the results depend on the processing

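The count of 0 called circRNAs held under 14 of 20 alternatives. Among them were all 6 that left out a replicate (0 to 0) and the replicate block (0). The slide as a block (0) and the fit on the control and metformin arrays alone (0) were others. Metformin replicate 3 was the only array on the second slide. The slide block therefore takes out that array and is not a separate check from leaving it out. The call count was 3 with normexp and quantile normalization, 6 with normexp and the 75th percentile, 3 with trend and robust fitting and 1 with array weights, all lower with metformin; 5 of the 6 are among the 10 named lower circRNAs, and the sixth is the chromosome 13 circRNA from 62270802 to 62275617. With the array column as a covariate 2 dim circRNAs were called, both higher, and with the authors' deposited values 23. The cause of these differences was not tested.

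At an unadjusted p under 0.05, the 423 higher became 646 with the authors' deposited values and 809 with array weights, and ran from 266 (without control replicate 2) to 469 when a replicate was left out. The 884 lower became 545 with the slide as a block, and ran from 542 (without metformin replicate 3) to 1293 (without metformin replicate 1). With the median of circRNA probes above background on all 9 arrays in place of the 75th percentile, 510 were higher and 833 lower. With normexp and the 75th percentile these were 542 and 655. Under the replicate block 463 were higher and 963 lower, and it changed no call; same-numbered arrays did not deviate together.

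Of the 100 brightest, the 0 higher became 11 with normexp and quantile normalization, 5 with quantile normalization of the processed signal, 10 with the authors' deposited values, 3 with the array column and 1 under the replicate block, and stayed 0 to 0 when a replicate was left out. The 14 lower became 5 with the authors' deposited values and 22 with the slide as a block, and ran from 11 to 22 without 1 replicate. Loci called were 1 with the authors' deposited values and 0 to 2 without 1 replicate (2 without metformin replicate 1). The ratio gave 1 call without a filter on dim probes. In the dimmest 10%, 4 were lower and 15 higher with only probes above background on all arrays, 52 and 38 with the authors' deposited values, 148 and 69 with the slide as a block, and 407 and 78 with the array column. The alternatives for the brightest, the dimmest 10%, the bounds, and single ratios and loci were added after seeing the data.

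For single circRNAs, ratios and loci, 771 of 802 values kept direction and side of the threshold, 14 passed it and 17 turned. The values come from refits of the same arrays, and no main value had passed the threshold, so the count does not measure stability. Differences of exactly 0 at the floor of the authors' deposited values were left out. As log2 ratio to the partner, mmu_circ_0011790 (-0.14), the chromosome 14 circRNA from 32421153 (-0.11), mmu_circ_0010285 (0.027) and mmu_circ_0010287 (0.16) turned. With the authors' deposited values mmu_circ_0011790 (-2.0), the chromosome 14 circRNA from 36257400 (-1.52) and the chromosome 1 locus from 178961781 (-0.94) turned. mmu_circ_0005463, at -0.003 in the main fit, ran from -5.95 to 0.24 over the alternatives, the log2 ratio among them. It stood at 0.024 with quantile normalization, 0.012 with the array median and 0.24 with the array column. It stood at 0.15, 0.00020 and 0.06 without control replicate 3, metformin replicate 1 and metformin replicate 2. mmu_circ_0015722 stood at -0.028 with array weights and at -0.030 with the slide as a block, and ran from -0.030 (without metformin replicate 3) to 0.12 without 1 replicate. With 3 pools per group and a median interval of 0.36 to either side, the number of arrays limits the precision, and dim probes read near background have no firm order.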

Other observations

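The authors' deposited table of log2 values gave 23 calls between metformin and chow when fitted in the same way (limma, adjusted p under 0.05), 14 higher and 9 lower. In all 23, every array of 1 group stood at the floor of that table, -3.32, and 6 of them had an unadjusted p under 0.05 in the fit of the scanner intensities, where 2 differed by more than 0.5 log2 units. mmu_circ_0011107 is an example: by the authors' deposited values it was at the floor on all 3 chow arrays and 9.24 log2 units higher with metformin, while its scanner intensity differed by 0.03. Of the named circRNAs, the 1 on chromosome 2 (28396231 to 28406083) was among the 23, with 8.40 against 0.81, and 2 were at the floor in both groups.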
